A study of Mus musculus with 10 samples.

Results

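The wild-type m6A map of mouse embryonic stem cells is the list of regions called for m6A immunoprecipitates of Mettl3 wild-type cells. All 12368 peaks of that list were described, out of 50124 in the 3 peak lists of the series. Male embryonic stem cells had been derived from the inner cell mass of 129 mice at 3.5 days post coitum and were grown feeder-free in serum with 1000 U/ml LIF. The wild-type arm comprised 2 precipitates and 2 inputs of polyA RNA with the titles m6A-RP.Mettl3-WT. Their cell type label calls them wild type, a term the labels also use for the knockout samples. The labels do not state whether the line is a single clone or whether the 2 replicates were separate cultures. The extraction text of the m6A samples describes the pull-down of Halo-tagged YTHDC1 and no m6A antibody, so that these are m6A precipitates rests on their titles and on the name of the list. The list is named in the labels of 3 precipitates, of which 2 are titled wild type and 1 Mettl3-KO, so whether a knockout library contributed to it cannot be told from the labels.

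N6-methyladenosine (m6A) is the most common internal modification of messenger RNA. It is written by a nuclear complex whose catalytic subunit is METTL3, mostly at adenosines in short contexts such as GGAC, and is known to gather in long internal exons and near stop codons. It is read by YTH-domain proteins, and in embryonic stem cells it shortens the life of many transcripts, those of pluripotency factors among them. Antibodies against m6A also bind m6Am, a related base next to the cap of messenger RNA.

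Each peak is a chromosome, a start and an end. The list carries no height, read count, strand or value per replicate. The spread between replicates and the depth behind a peak are therefore unknown, and intervals below are exact 95% binomial intervals that cover counting error only. A peak was given to the gene whose span, from the first to the last annotated base with introns included, holds its midpoint (RefSeq, GRCm38.p6, the build of mm10). The strand of a gene came from the RefSeq table of start sites, which matched 5378 of the 6570 genes with a peak and 9623 of the 11788 peaks in genes (81.6%).

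Sequence could be read where RefSeq start-site windows or microRNA hairpins fell inside a peak. Of 1005 hairpins in the table, 19 shared at least 1 bp with a peak and 15 lay wholly inside one. Both hairpins of Dgcr8 were among them. Dgcr8 encodes the RNA-binding partner of Drosha, and its own transcript is known to be cut by Drosha and DGCR8 at hairpins. A single 650 bp peak (chr16:18284051-18284700) covered both, 4876 bp from the 5′ end of the span. Mir671 lay in a 350 bp peak in Chpf2, a chondroitin synthesis gene (chr5:24592101-24592450). The mature RNAs of these 3 hairpins are shown as examples of annotated RNA elements that lie wholly under a peak, and they were chosen after the matches were seen. The capitals mark the seed, bases 2 to 8, and no 2 of the 6 share one.

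mmu-miR-1306-5p: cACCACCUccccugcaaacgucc
mmu-miR-1306-3p: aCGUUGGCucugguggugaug
mmu-miR-3618-5p: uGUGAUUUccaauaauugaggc
mmu-miR-3618-3p: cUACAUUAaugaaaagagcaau
mmu-miR-671-5p: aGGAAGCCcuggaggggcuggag
mmu-miR-671-3p: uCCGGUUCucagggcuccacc

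The files do not show whether a precursor or the host messenger RNA carried the signal. Of the 16 hairpins whose host gene has a known strand, 13 lay on the strand of that gene. Both hairpins of Dgcr8, in the same peak, are among these 13. The share over all hairpins in genes is not given here, so the 13 cannot be set against it. The letters GGAC, read on the hairpin's own strand, occurred in 7 of the 19 hairpins (36.8%, 16.3 to 61.6%) and in 246 of all 1005 (24.5%). These intervals overlap.

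Start-site windows of 300 bases (250 before the start and 50 after it) lay wholly inside a peak 59 times. After repeats and hosts without strand were left out, 50 windows in 45 peaks remained, and some of these overlap each other. Read on the strand of the gene that holds the peak, GGACT was found in 21 of the 50 (42%, 28.2 to 56.8%) and in 8584 of all 32851 windows read on their own gene's strand (26.1%). With either strand allowed the shares were 52% (37.4 to 66.3%) and 45.5%. The shorter GGAC was found in 43 of the 50 on the host's strand (86%, 73.3 to 94.2%) and in 65.6% of all windows. Every GGACT match is also a GGAC match. Windows inside peaks differ from all windows in the genes they come from, and the part of base composition was not tested. The stretches below show GGACT in capitals, within peaks of 6 genes, as they read on the strand of the gene that holds the peak.

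Fbxw7, chr3:84815349-84815378, plus strand: ggctcctcggcgGGACTccaggagttctcg
Zcchc14, chr8:121652149-121652178, minus strand: ctcgtgcctggaGGACTtggcacgcaagga
Rbbp6, chr7:122970467-122970496, plus strand: gaggccgctcgtGGACTccgggcctaggcc
Klf7, chr1:64079252-64079281, minus strand: gacctttggtgaGGACTtGGACTgcttcct
Dnajb1, chr8:83608328-83608357, plus strand: ggccatgggcaaGGACTactatcagacgct
Acin1, chr14:54650293-54650322, minus strand: tgctcttcagatGGACTttcctttggtccc

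Fbxw7, the substrate receptor of a ubiquitin ligase, had a 1100 bp peak there among 5 in all. Klf7, a Krüppel-like transcription factor, had 3 peaks, and the stretch in its 700 bp peak held GGACT at 2 places. Acin1, a splicing-associated protein, had a 1250 bp peak among 2. The Klf7 and Acin1 stretches come from start-site windows of other genes on the opposite strand. These 2 peaks lie 43295 and 36890 bp from the 5′ ends of the Klf7 and Acin1 spans. These 6 were chosen from the matches after they were seen, to show well-known genes.

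The list marked a minority of genes, and mostly with 1 peak each. Of 21887 coding genes, 6448 had a peak (29.5%, 28.9 to 30.1%). Of 12727 long non-coding RNA genes, 122 did (0.959%, 0.797 to 1.14%). Coding genes held 98.3% of the peaks in genes. A midpoint in both a coding and a long non-coding span was given to the coding gene, so the long non-coding counts leave such peaks out. With each peak assigned to all the genes it touches, coding genes took 95.1% of 12739 assignments. Among the 6570 genes with a peak, 3641 (55.4%) had 1, 1659 had 2, 716 had 3 and 323 had 4. The 231 genes with 5 or more peaks made up 3.52% of these genes and held 1389 peaks (11.8%). Their number was 140 when peaks under 200 bp apart were merged and 19 with only peaks above the median width. The 231 comprised 229 coding genes (1.05% of all coding genes) and 2 long non-coding RNA genes. The mean was 1.79 peaks per gene and the median was 1.

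In genes with more peaks the widest peak was larger, while peaks near the 3′ end of the span were not. The widest peak of a gene had a median of 450 bp in genes with 1 peak, 700 bp in genes with 3 and 850 bp in genes with 5 or more. It is the largest of more values in genes with more peaks. In the last of 10 equal bins of the span (the 3′ end) the median width of all peaks was 450 bp in genes with 1 peak, 400 bp with 2 to 4 and 350 bp with 5 or more. Other bins went both ways, with 450, 450 and 500 bp in the third and 550, 400 and 350 bp in the eighth. The rank correlation of peak number with the widest peak was 0.32 over the 6570 genes, which are not independent replicates. The median length covered per gene went from 450 bp with 1 peak to 900 bp with 2, 1350 bp with 3 and 2500 bp with 5 or more. Over the whole list the median width was 400 bp, the 5th percentile 150 bp and the 95th percentile 1200 bp. The widest peaks after that of Spen (4400 bp) were in Plec (3250 bp), the receptor gene Notch2 (3100 bp), Dido1 (3050 bp), Urgcp (2900 bp) and Fem1a (2850 bp), where it was the only peak.

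**Figure D1:**
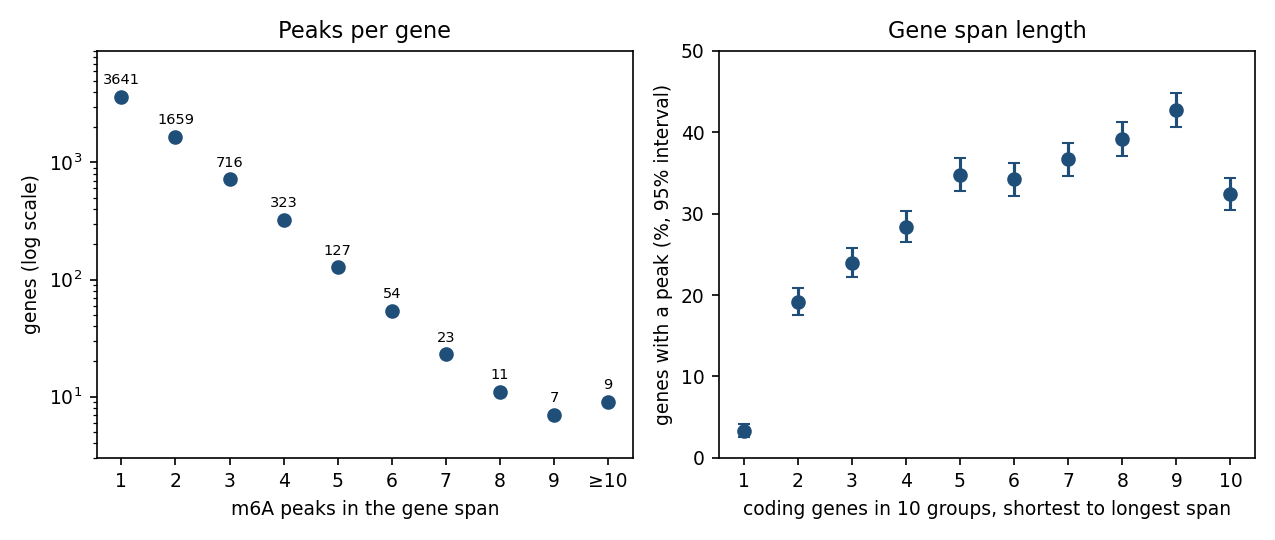
Left, the number of genes (log scale) by the number of m6A peaks in their span, from 3641 genes with 1 peak to 9 genes with 10 or more. Right, the share of coding genes with a peak, with exact 95% intervals, in 10 equal groups ordered by span length, which is highest in the ninth group and lower in the last.

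Long genes carried peaks more often than short ones, up to a point. Coding genes were ordered by span and cut into 10 equal groups. In the group of shortest spans, up to 1.54 kb, 72 of 2188 had a peak (3.29%, 2.58 to 4.13%). The share was 34.8% (32.8 to 36.8%) at 11.7 to 17.2 kb and 42.7% (40.6 to 44.8%) at 57.1 to 109 kb. In the group of longest spans, above 109 kb, it was 32.4% (30.4 to 34.4%), below the ninth group beyond both intervals. Of the 10 longest coding genes, 3 had a peak. Cntnap2, a neuronal adhesion protein with a span of 2240 kb, had 4, while Lrp1b and Macrod2 had 1 each. The spans of Dmd, which encodes dystrophin, and of the neuronal genes Ptprd, Lsamp, Dlg2, Csmd1 and Nrxn3 had none, nor did that of Fhit. The list gives no expression level, so genes without RNA and RNA without a peak cannot be told apart.

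Once a coding gene had a peak, span length was only weakly related to how many it had. The mean was 1.12 peaks in the group of shortest spans, 1.68 at 11.7 to 17.2 kb and 2.18 in that of the longest. The rank correlation of span with peak number was 0.17, and with covered length 0.11, over 6448 genes. Covered length per gene differed little over the 10 groups, with medians of 600 to 850 bp. Of all genes in a group, with or without a peak, those with 5 or more were 0.137% in the third and 2.92% in the ninth. Among genes with a peak they were 3 of 524 and 64 of 935.

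Ahnak, which encodes a giant scaffold protein of the cell membrane, led by number with 24 peaks covering 9150 bp (chromosome 19). Fat1, a giant protocadherin, followed with 17 peaks and 9200 bp. Dst, the cytoskeletal linker dystonin, had 13 peaks of at most 600 bp each, and the zinc finger homeobox gene Zfhx2 had 12. Ankrd11, an ankyrin repeat chromatin regulator, and Mga, a MAX partner in a Polycomb complex, had 11 each. Spen and the histone H3 lysine 4 methyltransferase genes Kmt2d and Kmt2a had 10 each. Zfp318, Tnrc18, Bptf, Macf1, Apc and Bod1l had 9 each. With 8 peaks each, Mtcl1, Zfp462, Lcor, Gtf3c4, Brd1, Zfp292, Rlf, Setd2 and 1 gene with a provisional name were also among the leading 25.

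Ranked by covered length, Spen came first. Its 10 peaks covered 11600 bp, 16.4% of a 70.8 kb span. Fat1, Ahnak and Kmt2d (8850 bp, 20.9% of the span) followed. Plec reached 6750 bp with only 5 peaks, and Arhgap32 4700 bp with 3. Of the 25 genes leading by number, 13 were also among the 25 leading by covered length. Genes that entered by length alone included Zcchc14, Dido1, Gcnt2, Rnf213, Ahdc1, Smcr8, Cic, Nsd1, Zfp646 and Zfp516, with 4450 to 5100 bp in 4 to 7 peaks. The median span was 87.7 kb in the first set and 95.6 kb in the second, against 25.5 kb over coding genes with a peak and 13.9 kb over coding genes without.

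In a few compact genes the peaks added up to most of the span. Whole peak widths were counted, so a share can include bp beyond the ends of the span. Among spans of at least 2 kb with 2 or more peaks, the highest share was in Riox1, a ribosomal oxygenase gene, with 2050 bp of 2.35 kb (87.4%). Pagr1a, a partner of the Kmt2c and Kmt2d methyltransferases, had 71.7% covered by 3 peaks. B4gat1, a glycosyltransferase of dystroglycan, had 71.5% and Zbtb9 71.1%. The Wnt receptor gene Fzd7 had 2 peaks of 2950 bp in all over 4.81 kb (61.3%). Fam43a (68.3%), Gspt2 (68.2%), Hps6 (66.8%) and Lrfn4 (63.1%) completed the named genes among the first 10.

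With the strand known, the peaks lay mainly toward the 3′ ends of genes. Each span was cut into 10 equal bins, from the 5′ end (bin 1) to the 3′ end (bin 10). The last bin of the span held 4126 of 9623 peaks (42.9%, 41.9 to 43.9%), the ninth bin 14.5% and the first bin 8.44% (7.89 to 9.01%). Each of bins 2 to 6 held 3.43% to 4.74%. Genes on the plus and on the minus strand gave the same picture, with 42.6% and 43.2% in the last bin. The median distance of a midpoint was 3002 bp from the 3′ end and 19635 bp from the 5′ end. Within 1000 bp of the 3′ end lay 22.4% of the peaks and within 5000 bp 62.4%, against 8.13% and 20.9% for the 5′ end.

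The crowding at the 3′ side was not at the very end of the span. Only 130 midpoints (1.35%, 1.13 to 1.6%) lay within 200 bp of the 3′ end and 301 (3.13%, 2.79 to 3.5%) within 200 bp of the 5′ end. A peak wholly inside a gene and over 400 bp wide cannot have its midpoint so close to an end. In spans under 5 kb the last bin held 9.92% of the peaks, the eighth 14.4% and the ninth 15.5%. In longer spans the last bin held 33.3% (5 to 20 kb), 48.1% (20 to 50 kb), 52.6% (50 to 100 kb) and 57.1% (100 kb and more). A bin of a longer span is a longer stretch. The median distance from the 3′ end itself was 1065.5 bp in spans under 5 kb and 8743 bp in those of 100 kb and more.

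**Figure D2:**
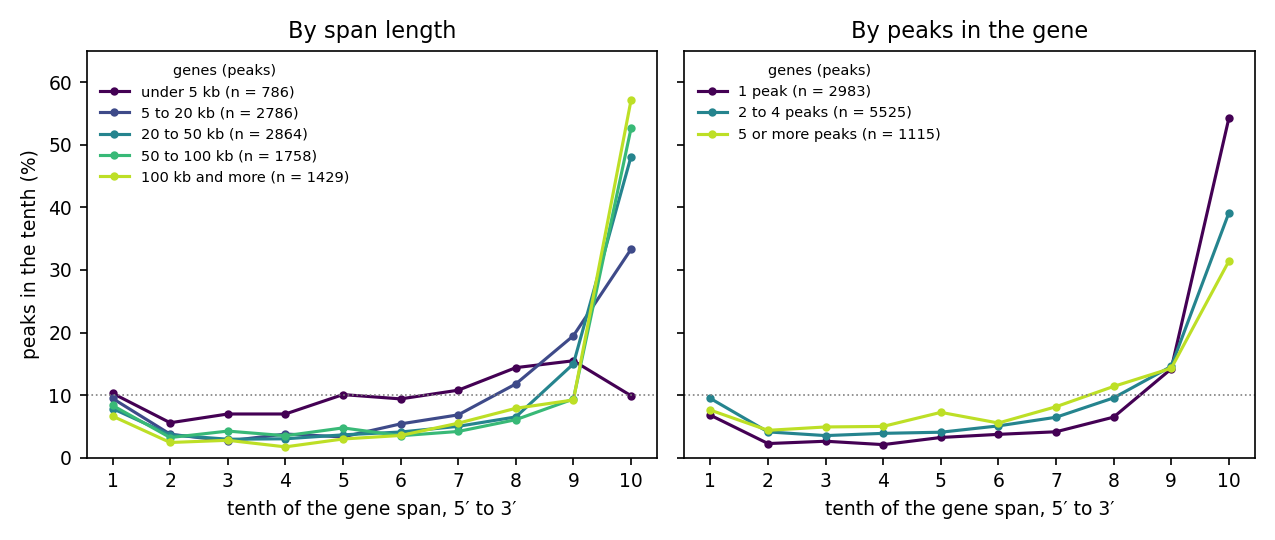
Share of m6A peaks (percent) in each of 10 equal bins of the gene span from the 5′ to the 3′ end, by span length (left) and by number of peaks in the gene (right), with the number of peaks in brackets. The dotted line is an equal share of 10%, and all classes other than spans under 5 kb have their highest point in the last bin.

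The peaks of genes with 1 peak lay in the last bin more often than the peaks of genes with many. The last bin held 54.2% of the peaks of genes with 1 peak, 39.1% of those in genes with 2 to 4 and 31.4% of those in genes with 5 or more. Of 2983 genes with 1 peak, 2356 (79%, 77.5 to 80.4%) had it within 5000 bp of the 3′ end. Of 2395 genes with more, 2006 (83.8%, 82.2 to 85.2%) had at least 1 there. The nearest peak lay a median of 1544 and 1444 bp from the 3′ end. In 417 of the 2395 (17.4%) all peaks were in the last bin, and 276 (11.5%) had peaks in both the first and the last bin. In 988 (41.3%) the widest peak was in the last bin. Peaks of the first bin were narrower, with a median of 300 bp against 400 to 450 bp in the other bins.

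Long non-coding RNA genes showed less of the 3′ crowding. The last bin held 31 of their 169 peaks with a known strand (18.3%, 12.8 to 25%) and 43.3% (42.3 to 44.3%) of those in coding genes. The classes were not matched for span length. Over all genes the last bin held 9.92% of peaks in spans under 5 kb and 57.1% in those of 100 kb and more. The part of span length in the contrast was not tested. Tug1, a nuclear and cytoplasmic long non-coding RNA, had 7 peaks over 34.3% of its 9.03 kb span, from 165 to 7040 bp before the 3′ end. Lncenc1, an embryonic stem cell RNA, had 4, the widest of 1700 bp at 2464 bp from the end. Platr14, a pluripotency-associated RNA, and the imprinted Meg3 had 4 each, and the nearest of Meg3 was 13454 bp from its end. The other 6 of the 10 leading genes of this class, among them the one with most peaks (8), have provisional names.

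The leading genes differed in where their peaks lay. All 11 peaks of Ankrd11 and all 8 of Rlf, a zinc finger gene, were in the last bin, as were 7 of 8 in Zfp292. In Ahnak none were. Its 24 peaks ran from 0.132 to 0.336 of the span, where the span is that of the longest annotation and reaches 58210 bp beyond the last peak. Fat1 had peaks at 0.02 to 0.168 of its span, a lone one at 0.471 and 11 from 0.758 to 0.992. Spen had 7 peaks from 0.845 to 0.992, among them the widest of the list (4400 bp, chr4:141471501-141475900), 2 at 0.241 and 0.304, and 1 at its 5′ end. Over the 22 leading genes by number with a known strand, 55 of 227 peaks (24.2%, 18.8 to 30.3%) lay in the last bin, below the 42.9% of all peaks, which include these.

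**Figure D3:**
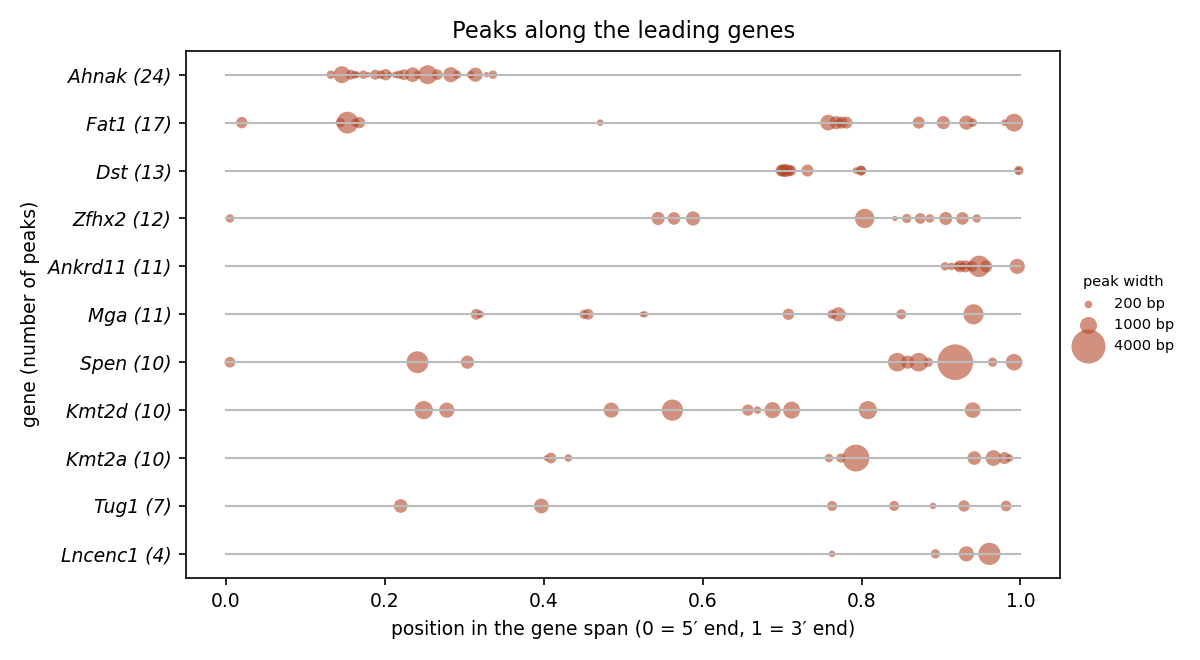
Position of each m6A peak along the gene span (0 is the 5′ end, 1 the 3′ end) in the 9 genes with the most peaks and a known strand and in the long non-coding RNA genes Tug1 and Lncenc1. Circle area is proportional to peak width, and the number of peaks is in brackets. The peaks of Ahnak gather in the first part of its span and those of Ankrd11 in the last bin.

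Many neighbouring peaks of a gene were close, though the typical gap depended on how peaks were counted. Over 5218 pairs the gap from the end of a peak to the start of the next had a median of 1300 bp, with quartiles of 300 and 7200 bp. The median was 2300 bp when peaks under 200 bp apart were merged and 3650 bp with only peaks above the median width. As deposited, the gap was under 200 bp in 17.9% (16.9 to 19%) of pairs and under 500 bp in 33.5% (32.2 to 34.8%). All starts and ends lie on a grid of 50 bp, and 388 pairs (7.44%) were separated by a single step of 50 bp, the smallest gap. The widest gaps were 749800 bp in Etl4, 718950 bp in Camta1, 658500 bp in Cntnap2, 448950 bp in Exoc6b and 348300 bp in Zfp407.

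The gap grew with the span, from a median of 400 bp in genes under 5 kb to 3375 bp in those of 100 kb and more. The lower quartile was more even, at 150 and 450 bp. Genes with 5 or more peaks had a median gap of 900 bp, those with 2 peaks 1400 bp and those with 3 or 4 peaks 1450 bp. When both peaks were in the last bin the median was 450 bp (950 pairs). When both were in bins 2 to 9, in the same bin or not, it was 700 bp (1718 pairs). When they were in different bins it was 4400 bp (2511 pairs). Peaks in the same bin cannot be farther apart than the bin is long, so a larger gap between bins is built in. The gaps are genomic and include introns, so the distance along the RNA is not known.

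**Figure D4:**
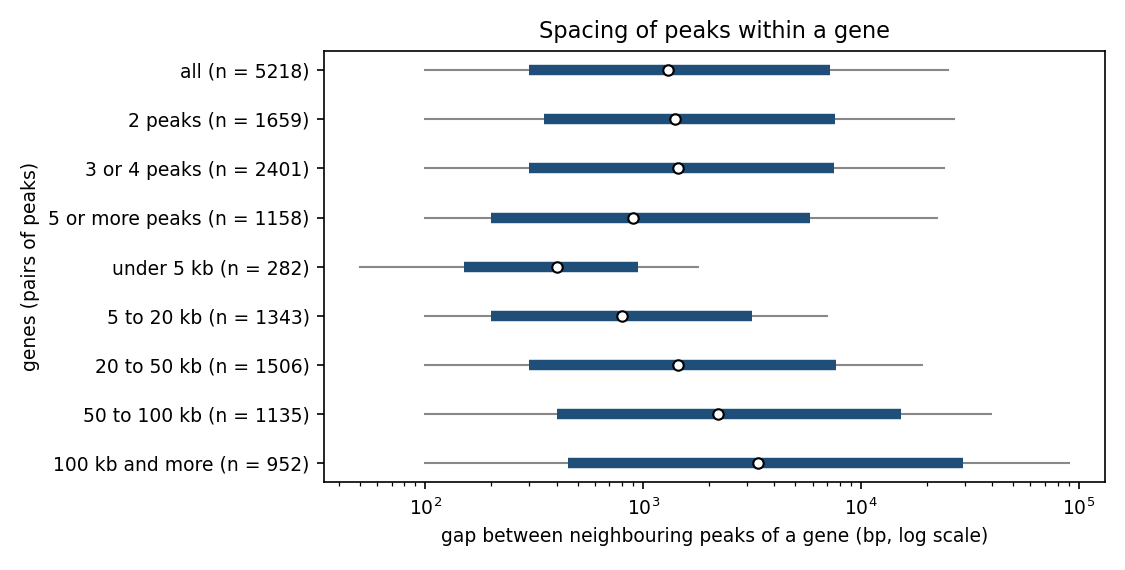
Gap between neighbouring m6A peaks of a gene (bp, log scale), over all genes, by number of peaks and by span length, with the number of pairs in brackets. Circles are medians, thick bars the quartiles and thin lines the outer deciles. The median is 1300 bp over all pairs and is largest in spans of 100 kb and more.

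Peaks less than 500 bp apart formed runs. There were 1394 runs of 2 or more, in 1292 genes, and they held 3140 peaks (26.6% of those in genes). Most (1137) had 2 peaks. The longest had 8, in Ankrd11 (chr8:122889901-122895950, 6050 bp, 67.8% covered) and in Rlf (4700 bp). Ahnak and Zfhx2 had runs of 7. Runs of 6 were in Adnp, a neuroprotective homeodomain protein that binds chromatin, and in the zinc finger genes Zfp644 and Zfp866. The run of 5 in Spen was the most extended, at 7950 bp, of which 96.9% was covered.

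The chromosomes differed modestly, apart from the sex chromosomes. Between 24.8% (23 to 26.8%, chromosome 7) and 36.7% (33 to 40.4%, chromosome 12) of autosomal coding genes had a peak, and 30.5% (29.8 to 31.1%) over all autosomes. On the X it was 149 of 966 (15.4%, 13.2 to 17.9%) and on the Y 2 of 256 (0.781%, 0.0948 to 2.79%). Coding genes with a peak had a mean of 1.7 to 1.9 peaks on every autosome and 1.71 on the X. Chromosome 11 held the most peaks (1040, 8.41%). The X interval lies below that of every autosome, and the list does not give how many genes of the X and Y are expressed in these cells.

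**Figure D5:**
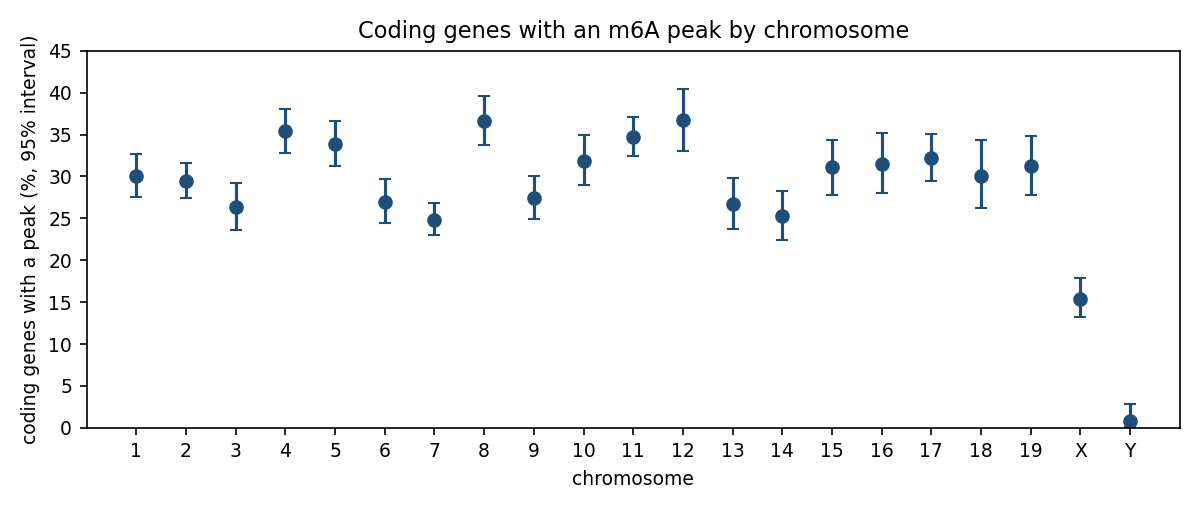
Share of coding genes with at least 1 m6A peak (percent) by chromosome, with exact 95% intervals. The autosomes lie between 24.8% and 36.7%, the X at 15.4% and the Y at 0.781%.

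Most markers of embryonic stem cells held peaks. Of 10, 8 had one (29.5% of all coding genes did), and the 2 without were Pou5f1, which encodes OCT4, and Dppa5a. Tbx3, a T-box factor of the naive state, had 5 peaks covering 2950 bp, the reprogramming factor Klf4 4 (2800 bp) and the nuclear receptor gene Esrrb 4 (1700 bp). In Klf4 the midpoints lay 663, 1063, 3213 and 4863 bp from the 3′ end, in a span of 5339 bp, so they lay along most of the gene. In Esrrb 2 of 4 lay in the last bin, 278 and 2553 bp from the end. The wider of 2 peaks in Sox2 (1300 bp) lay 1361 bp from the end, and the single peak of Nanog (400 bp) 1233 bp from the end. Of 6 fibroblast markers Vim alone had a peak (150 bp), and Col1a1, Col1a2, Col3a1, Postn and Thy1 had none. Of 16 markers of germ layers and trophoblast 4 had one, namely Otx2, Sox1, Eomes and Nes. A missing peak says nothing about the level of the RNA.

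Most genes of the machinery that writes m6A held peaks themselves. Of 8 genes of the methyltransferase complex 7 had a peak, the exception being Mettl3, and 29.5% of all coding genes had one. Virma, the complex's scaffold, had 4 peaks covering 2750 bp, and Zc3h13, which holds the complex in the nucleus, had 5 covering 2250 bp, the last 558 bp from the 3′ end. Rbm15 (2400 bp) and Rbm15b (2400 bp), which guide the complex to RNA, had 1 and 2. Of 12 reader and eraser genes 8 had a peak, against the same 29.5%. The cytoplasmic readers Ythdf3, Ythdf2 and Ythdf1 had 1950, 1850 and 1500 bp covered, and the nuclear reader Ythdc1 1350 bp in 4 peaks. Of the erasers, Fto and Alkbh5 had 3 peaks each, covering 1000 and 500 bp. Hnrnpc, Hnrnpa2b1, Ythdc2 and Igf2bp3 had none.

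Most large chromatin regulators held peaks. Of 39, 37 had a peak, all but Chd3 and Smarca4 (29.5% of all coding genes had one), and 16 had 5 or more (1.05% of all coding genes did). They held 172 peaks, with a median of 4 per gene and 2850 bp covered. After Spen, Kmt2d and Kmt2a came Nsd1, a histone H3 lysine 36 methyltransferase (4550 bp). Of their 139 peaks with a known strand, 44 lay in the last bin, which held 42.9% of all peaks. This list, like the others, was made with the leading genes known, so its count is a description and no independent evidence. It was not matched for span length. Of coding genes with spans of 57.1 to 109 kb, 42.7% had a peak and 2.92% had 5 or more.

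In the other groups of coding genes 47.6% to 75% of the members had a peak, against 29.5% of all coding genes. None of the lists was matched for span length. Over the 10 span length groups of coding genes the share with a peak went from 3.29% in the shortest to 42.7% in the ninth. Of 17 giant cytoskeletal linkers 9 had a peak and 4 had 5 or more, namely Ahnak, Plec, Dst and Macf1, against 1.05% of all coding genes with 5 or more. The whole group had 60 peaks, and 6 of 53 with a known strand lay in the last bin, which held 42.9% of all peaks. Ahnak alone gave 24 of these 53 and none in the last bin. Its annotated span reaches 58210 bp beyond its last peak, so the group's share rests largely on this gene. Of 13 Notch, Fat and Celsr receptors 7 had a peak. All 4 Notch genes did, and each of their 8 peaks lay in the last bin, with Notch2 at 3500 bp covered and Notch1 at 2050 bp. Fat1 had 17 peaks, while Fat2, Fat3, Fat4, Dchs1, Dchs2 and Celsr2 had none. Of 12 genes of microRNA silencing 9 had a peak, led by the scaffold genes Tnrc6c (4250 bp in 5 peaks) and Tnrc6b (2250 bp) and by Dicer1 (2150 bp). Ago2 had 2 peaks, and Ago1, Ago3 and Ago4 had none. Of 21 immediate early and feedback genes 10 had a peak, with 13 peaks in all and none of the 12 with a known strand in the last bin. Spry1 (1500 bp), Junb (1350 bp), Socs3 (1250 bp) and Spry2 (1200 bp) led them. The spans of these 10 are all under 5 kb, a class in which the last bin held 9.92% of peaks. The peak of Spry1 lay 1299 bp from the end. Of 14 nuclear long non-coding RNAs 6 had a peak (0.959% of genes of this class did). These counts leave out midpoints that also lie in a coding gene. Malat1 had 1 of 350 bp, 5685 bp from its 3′ end, Neat1 2 and Rian 2.

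Peaks over transcription starts were a small set. The RefSeq table of start sites used here holds 32851, from 27025 genes, among them 5378 of the 6570 genes with a peak. Of these starts 503 lay in a peak and 404 (1.23%, 1.11 to 1.35%) in a peak of their own gene, from 382 genes. Of these 382, 115 (30.1%) had no other peak, while 55.4% of all 6570 genes with a peak had only 1. A gene with more peaks has more that can lie over its start. The 385 peaks concerned had a median width of 300 bp. The first 50 bases after these starts held GGACT in 23 of 404 (5.69%, 3.64 to 8.42%) and after all starts in 5.76%. The shorter GGAC was found in 22% (18.1 to 26.4%) of them and in 18.9% of all. The first base was A at 31.9% (27.4 to 36.7%) of them and at 34.4% of all starts, and G at 44.1% (39.2 to 49.1%) against 35.6%. The first base was T at 8.91% (6.32 to 12.1%) against 13.7%. For GGACT, GGAC and A the interval includes the value over all starts, while for G and T it does not. All starts include those of genes without a peak, so the sets differ in their genes. The part of gene make-up and base composition was not tested.

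Peaks outside genes were few. They numbered 580 (4.69%, 4.32 to 5.08%) and were narrower, at a median of 250 bp compared with 400 bp for peaks inside genes. Of these, 190 (32.8%) were within 5000 bp of a gene. Where the strand of that gene was known, 86 of 149 (57.7%, 49.4 to 65.8%) lay past its 3′ end and the others before its 5′ end.

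RNA bound by YTHDC1 in the same series was compared by gene. That list comes from 1 precipitate and 1 input of Halo-Ythdc1 knockin cells, so it has no replicate. Spans with a YTHDC1 RIP peak made up 28.1% (27.3 to 28.8%) of coding genes without an m6A peak, 70.7% (69.2 to 72.2%) with 1, 77.1% (75.5 to 78.7%) with 2 to 4 and 87.8% (82.8 to 91.7%) with 5 or more. Of the m6A peaks themselves 1673 (13.5%) shared at least 1 bp with a RIP peak. By position this was 31.3% (28.1 to 34.6%) in the first bin, 14.1% in bins 2 to 9 and 9.48% (8.6 to 10.4%) in the last. Both lists need expressed RNA, and longer genes have more room for both. The part of expression and length in these shares was not tested.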

How the data were processed

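The authors deposited 3 peak lists of 3 columns (chromosome, start and end in bp), with no score. The submitters' processing notes name mm10 as build and Trim Galore 0.6.4, STAR 2.7, HISAT2 2.2.0, SAMtools 1.9 and MACS2 2.1.2 among the tools. Not given in the sources used here were their roles, the peak threshold, the use of the input, the pooling of replicates and the m6A antibody. A caller reaches further in deep libraries and abundant RNA, so the number and width of peaks are not amounts of m6A.

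A midpoint in several spans (6.37% of peaks in genes) went to the coding gene and then to the shortest span. Coding genes and long non-coding RNAs gave 34614 spans, and other gene models were left out. Assignment, position and gaps were tested on artificial peaks. Python 3.11.15, pandas 2.3.3, numpy 2.4.6 and scipy 1.17.1 were used. Coordinates count from 1. The list has no scores, so nothing was tested between conditions.

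Named were the 25 genes leading by peak number and by covered bp, the 10 by covered share, the 10 leading long non-coding RNA genes, the 10 longest coding spans, the widest gaps, the widest peaks and up to 4 members of each gene list, with those lacking a peak where 5 or fewer did. The 5 closest pairs are not named, since 388 pairs tie at the smallest gap. Others named were chosen after their values were seen. Provisional names are not printed. 1 gene of the leading lists is not reported here. Members and lists were chosen with earlier results of these data known. 1 of 15 long non-coding RNAs asked for had no match.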

Additional observations from a re-analysis of the deposited data

How the results depend on the processing

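No paired analysis was possible because there is 1 list for both replicates, and for the same reason none was left out. The planned analysis by coding length was not run, since no protein lengths were at hand.

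With only peaks above the median width, 97.6% lay in gene spans, 19.2% of coding genes had a peak (29.4% in the ninth length group, 8.7% on the X), 98.6% of assigned peaks were in coding genes, 44.1% of peaks were in the last bin, 19 genes had 5 or more, the median gap was 3650 bp and 12 of the 25 genes leading by number stayed. With every gene a peak overlaps, 30.6% of coding genes had a peak and coding genes took 95.1% of assignments. With all gene models the shares were 97.4% in spans and 96.2% in coding genes. With only peaks in exactly 1 span, 27.8% of coding genes had a peak. Merging peaks under 200 bp apart left 140 genes with 5 or more, against 231, and a median gap of 2300 bp. In genes with 1 listed start at the span end, an alternative chosen after seeing the data, the last bin held 39.3%, and in spans of 2 kb and more, also added, 43.4%. Shares were compared by their intervals, and counts, means and medians by a factor of 1.5.

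Spans include introns and follow the longest annotation, depth is unknown, and strand was known for 81.9% of genes with a peak.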
